A study of Mus musculus with 282 samples.

Results

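Granulocyte-monocyte progenitors (GMPs) that answered TNF with a transient NfkB response were compared with GMPs that received no cytokine and were called non-responsive. GMPs are progenitors in the bone marrow from which granulocytes and monocytes arise. The cells were chosen from the authors' deposited cell tables by stimulus and response class: TNF with the class transient, 76 cells, and a blank cytokine entry, taken to mean that no cytokine was added, with the class non-responsive, 47 cells. The cell tables listed 238 cells, out of 282 samples in all, and each sample is 1 cell. Of the transient cells, 25 came from an experiment with samples on 1 plate and 51 from an experiment with samples on 2 plates, called here the 1-plate and the 2-plate experiment. Of the resting blank cells, 13 came from the 1-plate experiment and 34 from the 2-plate experiment. All of them entered the sums described next.

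All cells of both classes carried the same alleles, GFP-p65 homozygous and H2BmCherry heterozygous, so that the NfkB subunit p65 and the nucleus could be followed by fluorescence. The mice were of both sexes and between 12 and 19 weeks old. Cells from their bone marrow were kept for 8 h under a confocal microscope, then picked one by one by micromanipulator for Smart-Seq2, a method that amplifies polyadenylated RNA of 1 cell along the whole transcript. The TNF dose and time of addition, the rule behind the response classes, and whether cells of several animals were pooled were not known here. The GMP label was not checked against marker genes, because the gene identifiers of the files are not paired with gene names in the tables used here, and genes are therefore given by identifier.

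TNF is a cytokine that, through its receptors, activates a kinase complex which marks the IkB inhibitors for degradation and frees NfkB to enter the nucleus. NfkB then induces, among many other genes, those of its own inhibitors, which return it to the cytoplasm. Nuclear NfkB can therefore end after a single pulse, called transient, or come back in further pulses, called oscillatory. The rule used here to choose the cells takes the stimulus and the response class from the cell tables and uses no gene's RNA level. The cell tables themselves list the cells that passed the authors' quality control, whose criteria were not known here.

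Transient cells had between 193116 and 1640537 reads assigned to genes in the 1-plate experiment (median 837709) and between 249309 and 3380416 in the 2-plate experiment (median 1603605). Non-responsive blank cells had between 350942 and 1349239 (median 939922) and between 297165 and 2971468 (median 1806716). The median number of detected genes was 9965 in transient cells and 9684 in blank cells of the 1-plate experiment, and 9705 and 9974 in the 2-plate experiment. Fewer than 8000 genes were detected in 7 transient cells, all on Plate2 of the 2-plate experiment, and in 4 blank cells, 2 of them on that plate and 2 in the 1-plate experiment. The transient cells of the 2-plate experiment were split over Plate1 (23 cells) and Plate2 (28 cells), as were the blank cells (18 and 16 cells). The spike-in RNA took a median of 0.111% of reads in transient and 0.157% in blank cells of the 1-plate experiment, and 1.25% and 1.11% in the 2-plate experiment.

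No imaging position held cells of both stimuli in either experiment. The 25 transient cells of the 1-plate experiment came from 25 colonies at 9 positions, and the 13 blank cells from 13 colonies at 5 others. The 51 transient cells of the 2-plate experiment had 3 position codes, and all 34 blank cells had another one. Stimulus and position in the culture vessel therefore cannot be told apart.

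The shares of the cell cycle phases that the authors assigned were set side by side and not tested between the classes. In the 1-plate experiment, G2M was assigned to 56% of 25 transient cells (exact binomial 95% interval 34.9% to 75.6%) and 53.8% of 13 blank cells (25.1% to 80.8%). On the plates of the 2-plate experiment it was assigned to 49% of 51 transient cells (34.8% to 63.4%) and 58.8% of 34 blank cells (40.7% to 75.4%). S phase was assigned to 28% of transient cells (12.1% to 49.4%) and 23.1% of blank cells (5.04% to 53.8%) in the 1-plate experiment, and to 23.5% (12.8% to 37.5%) and 14.7% (4.95% to 31.1%) in the 2-plate experiment. The intervals of the classes overlapped for every phase in both experiments, and they cover counting error only. They are wide, so they leave room for large differences in phase between the classes.

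**Figure D1:**
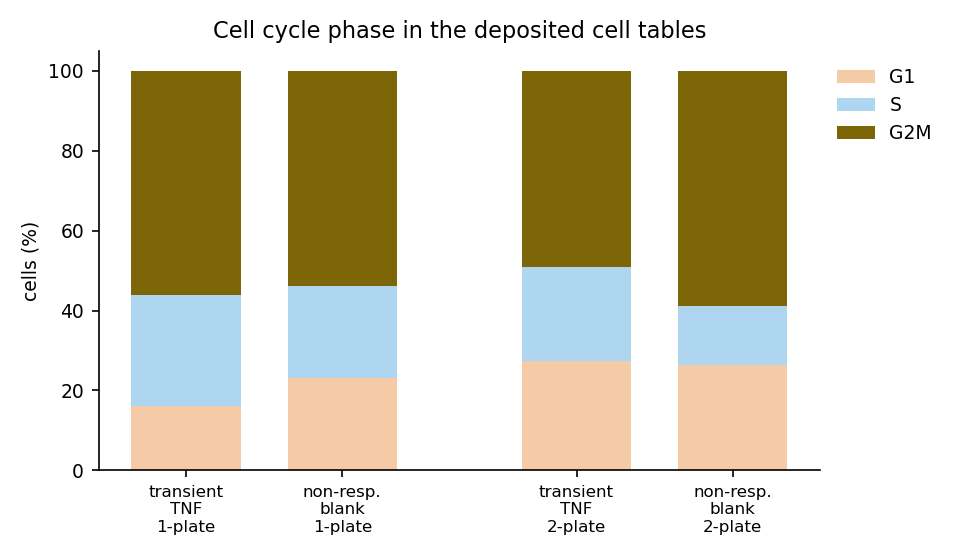
Share of cells (%) in each cell cycle phase of the deposited cell tables, for transient TNF cells and non-responsive blank cells of the 1-plate experiment (25 and 13 cells) and the 2-plate experiment (51 and 34 cells). G2M was the most frequent phase in all 4 groups, between 49% and 58.8% of cells.

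The first question was which genes differed between transient and resting cells in both experiments. Of 8361 genes tested, 86 (1.03%) rose and 18 (0.215%) fell in transient TNF cells at a Benjamini-Hochberg adjusted p below 0.05, by edgeR's two-sided quasi-likelihood test on reads summed per experiment and class (n = 2 experiments). The genes that rose had a median log2 fold change of 1.96, between 0.81 and 5.78, and those that fell had a median of -1.79, between -3.37 and -0.78. Over all genes tested, the median absolute log2 fold change was 0.19. All 86 and all 18 had the same direction in both experiments, and 85 and 15 of them had it on each of the 3 plates. That agreement is in part by selection, since the test that called the genes uses both experiments. A change of at least 4-fold was fitted for 43 of the genes that rose, for 7 of those that fell and for 84 of all genes tested.

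The number of calls moved with single cells and plates, while the 104 genes kept their direction in each fit given here in which they were tested. These fits reuse cells on which the calls were made. A single blank cell of the 1-plate experiment, in G1 phase and with 1099643 reads, was the highest of the 13 blank cells for 10 of the 18 genes that fell. In a fit without that cell, added once the data had been seen, the calls were 31 genes higher and 1 lower, all of them among the calls above (edgeR's quasi-likelihood test). The median log2 fold change of the 86 genes was then 2.12, and that of the 18 genes -1.35. In each experiment the transient cell that was highest for the most genes that rose held that place for 20 and 16 of 86 genes, and without these cells 72 genes rose and 16 fell. Without Plate1 of the 2-plate experiment 7 genes rose and 0 fell, with 573 genes at an unadjusted p under 0.05. Without Plate2, 70 rose and 6 fell, and the median of the 18 genes was -0.93.

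Many of the genes that rose were already read in resting cells, though in fewer of them than the typical gene tested. They were called for lower summed reads in these same blank cells, so the lower share is in part by selection. Their median share of blank cells with a read was 61.5% in the 1-plate experiment, against 92.3% over all genes tested. In the 2-plate experiment it was 77.9% against 97.1%. Their median level, counts per 1000000 gene reads (CPM) in the summed cells, was 74.5 CPM in transient cells and 16.3 CPM in blank cells of the 1-plate experiment, and 97.4 CPM in transient cells and 24.6 CPM in blank cells of the 2-plate experiment. The median level of all genes tested was close between the classes, at 61 CPM in transient and 60.4 CPM in blank cells of the 1-plate experiment, and 52.5 CPM and 54.9 CPM in the 2-plate experiment. In both experiments, 32 of the 86 genes had a read in at least 75% of blank cells, and 9 had one in under 25%. In transient cells, 64 of the 86 had a read in at least 75% of cells in both experiments. CPM is not scaled to gene length, so levels are compared between classes and not between genes.

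Both the share of cells with a read and the level in such cells were higher in transient cells for most of the 86 genes. These genes were called for higher summed reads in the same cells, so the directions follow in part from the selection. The values describe how the summed difference was spread over cells. The median share of cells with a read was 96% of transient and 61.5% of blank cells in the 1-plate experiment, and 90.2% and 77.9% in the 2-plate experiment. With each cell thinned to 500000 reads, it was 94.7% of 19 transient and 58.3% of 12 blank cells, and 92.4% of 46 and 75% of 32. Over all genes tested the unthinned median share was 100% of transient and 92.3% of blank cells in the 1-plate experiment, and 92.2% and 97.1% in the 2-plate experiment, where it was lower in transient cells. Of the cells, 6 transient and 1 blank in the 1-plate experiment and 5 and 2 in the 2-plate experiment, were too shallow to thin. The share was larger in transient cells for 71 genes in the 1-plate experiment and 60 genes in the 2-plate experiment, and for 74 and 67 genes after thinning. Among cells with a read, the median level was higher in transient cells for 77 of the 85 genes read in both classes of the 1-plate experiment, with a median ratio of 2.53. The same held for 85 of 86 genes in the 2-plate experiment, with a median ratio of 2.65. The highest transient cell held a median of 20.4% of a gene's transient reads among 25 cells of the 1-plate experiment, and 11.6% among 51 cells of the other.

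**Figure D2:**
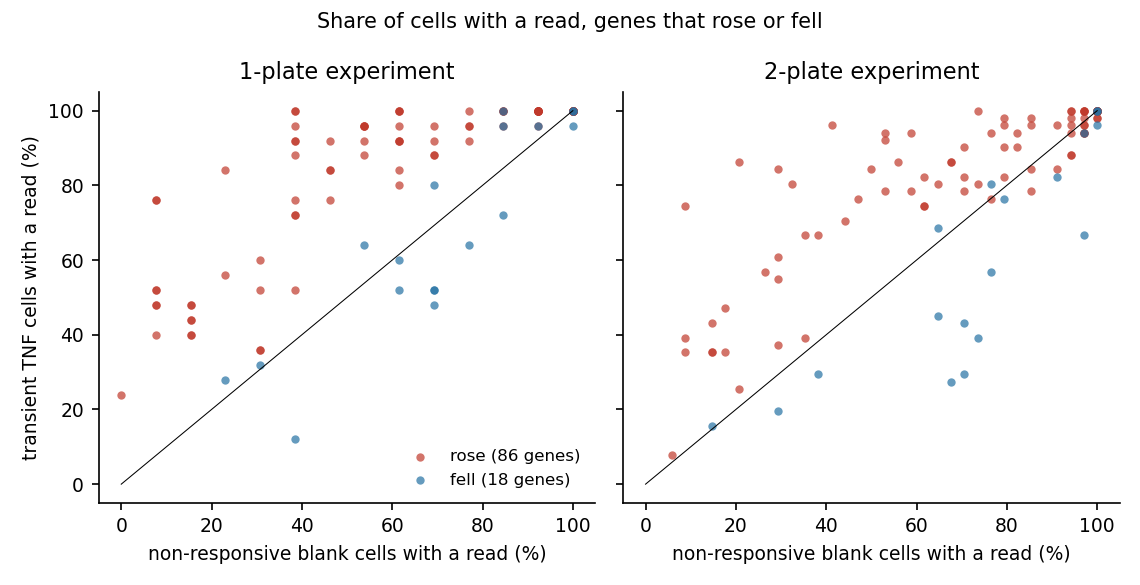
Share of transient TNF cells with a read (%, vertical axis) against the share of non-responsive blank cells with a read (%, horizontal axis), for the 86 genes that rose and the 18 that fell, in each experiment. Points above the diagonal were read in a larger share of transient cells, as were 71 (1-plate) and 60 (2-plate) of the 86 genes that rose. The genes were chosen by the summed reads of these same cells.

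For the 18 genes that fell, the median level was 28 CPM in transient cells and 103 CPM in blank cells of the 1-plate experiment, and 36.5 CPM and 109.5 CPM in the 2-plate experiment. The median share of cells with a read was 64% of transient and 69.2% of blank cells in the 1-plate experiment, and 61.8% and 75% in the 2-plate experiment. With cells thinned to 500000 reads the shares were 63.2% and 62.5%, and 54.4% and 70.3%. More than 50% of a gene's blank reads came from 1 cell for 9 of the 18 genes in the 1-plate experiment and for 3 in the 2-plate experiment. For the genes that rose, 4 and 1 of 86 had more than 50% of their transient reads in 1 cell.

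The genes given by identifier are those with the largest fitted change among the genes called, with the same direction in both experiments and a read in at least 50% of the cells of the higher class in both. These conditions were met by 73 of the genes that rose and 15 of those that fell. ENSMUSG00000113701 had a lowest, median and highest level of 0, 26.5 and 683 CPM in the 25 transient cells of the 1-plate experiment, against 0, 0 and 2.96 CPM in the 13 blank cells. In the 2-plate experiment the 3 values were 0, 7.11 and 387 CPM in the 51 transient cells, against 0, 0 and 34.8 CPM in the 34 blank cells. Cells without a read stood in both classes, and the transient cells above the highest blank cell made up the upper part of the range in both experiments. A read was found in 19 of 25 transient cells (76%, exact binomial 95% interval 54.9% to 90.6%) and in 1 of 13 blank cells (7.69%, 0.195% to 36%) of the 1-plate experiment. Among the cells of the 2-plate experiment, 39 of 51 transient cells (76.5%, 62.5% to 87.2%) and 16 of 34 blank cells (47.1%, 29.8% to 64.9%) had one. The summed level was 76.4 CPM in transient and 0.328 CPM in blank cells of the 1-plate experiment, and 33.2 CPM and 2.94 CPM in the 2-plate experiment. The fitted log2 fold change was 4.69 ± 0.77 (SE; edgeR's quasi-likelihood test, adjusted p = 0.036). The call did not hold without the blank cell described above (edgeR, log2 fold change 4.68, adjusted p = 0.096), nor without either plate of the 2-plate experiment (5.59 and 4.22, adjusted p = 0.1 and 0.14).

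ENSMUSG00000026875 was higher in transient cells on all 3 plates. Its lowest, median and highest levels were 0, 6.82 and 156 CPM in transient cells of the 1-plate experiment, against 0, 0 and 8.51 CPM in blank cells. They were 0, 36.2 and 988 CPM in transient cells of the 2-plate experiment, against 0, 0 and 30.6 CPM in blank cells. Most blank cells had no read, and the classes overlapped at 0 and at low levels. A read was found in 14 of 25 transient cells (56%, exact binomial 95% interval 34.9% to 75.6%) and 3 of 13 blank cells (23.1%, 5.04% to 53.8%), and in the 2-plate experiment in 44 of 51 (86.3%, 73.7% to 94.3%) and 7 of 34 (20.6%, 8.70% to 37.9%). After thinning to 500000 reads, 10 of 19 transient and 2 of 12 blank cells had one in the 1-plate experiment, against 39 of 46 and 5 of 32 in the other. The fitted log2 fold change was 4.54 ± 0.21 (SE; edgeR's quasi-likelihood test, adjusted p = 0.00015). On Plate1 of the 2-plate experiment the log2 difference of CPM + 1 was 5.61, on Plate2 4.03 and in the 1-plate experiment 3.60.

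Of the genes that fell, ENSMUSG00000030530 was read in nearly every cell of both classes. Its lowest, median and highest levels were 2.27, 15.9 and 97.6 CPM in transient cells of the 1-plate experiment, against 0, 44 and 1881 CPM in blank cells. In the 2-plate experiment they were 0, 37 and 381 CPM in transient cells, against 0, 54.5 and 1249 CPM in blank cells. All transient cells lay within the lower part of the blank range, and a few blank cells stood far above the rest. The highest blank cell held 52.8% of the gene's blank reads in the 1-plate experiment, against 33.9% in the other. The fitted log2 fold change was -2.44 ± 0.43 (SE; edgeR's quasi-likelihood test, adjusted p = 0.045). The log2 difference of CPM + 1 was -3.25 in the 1-plate experiment, and in the other -0.56 on Plate1 and -1.72 on its Plate2. The call did not hold without the blank cell described above (edgeR, -2.46, adjusted p = 0.11), without Plate1 (adjusted p = 0.19) or without Plate2 (adjusted p = 0.25).

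ENSMUSG00000039109 was read in a smaller share of transient cells, though with thinned cells the shares were close in the 1-plate experiment. Its lowest, median and highest levels were 0, 2.06 and 67.9 CPM in transient cells of the 1-plate experiment, against 0, 5.32 and 564 CPM in blank cells. Those of the 2-plate experiment were 0, 0 and 112 CPM in transient cells, against 0, 14.2 and 198 CPM in blank cells. Cells of both classes shared the range from 0 to the highest transient cell. A read was found in 13 of 25 transient cells (52%, exact binomial 95% interval 31.3% to 72.2%) and 9 of 13 blank cells (69.2%, 38.6% to 90.9%), and in the 2-plate experiment in 20 of 51 (39.2%, 25.8% to 53.9%) and 25 of 34 (73.5%, 55.6% to 87.1%). A single cell held 71.3% of its blank reads of the 1-plate experiment. The fitted log2 fold change was -2.35 ± 0.26 (SE; edgeR's quasi-likelihood test, adjusted p = 0.009). It was -1.65 without the blank cell described above, and the call did not hold (edgeR, adjusted p = 0.34), nor did it without Plate1 (-2.56, adjusted p = 0.068).

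**Figure D3:**
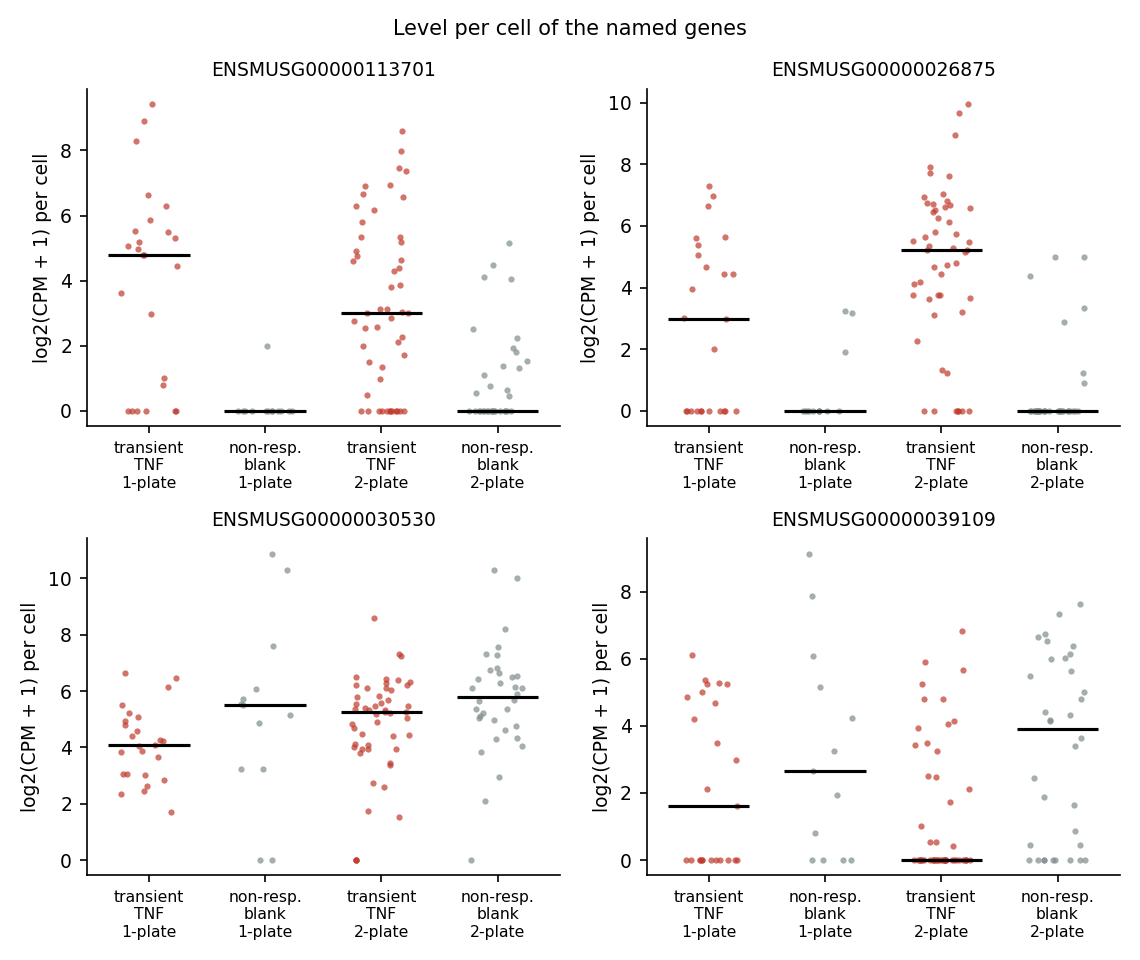
Level per cell, log2(CPM + 1), of the 4 genes given by identifier, for transient TNF cells and non-responsive blank cells of each experiment. Each point is 1 cell and each bar a median. The 2 genes that rose had a median of 0 CPM in blank cells of both experiments, and ENSMUSG00000030530 had blank cells at 1881 and 1249 CPM above all transient cells.

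A second question was whether a difference seen in one experiment returned in the other, with separate cells. Differences of log2(CPM + 1), transient minus blank, were taken in each experiment alone, with a 4-fold limit chosen after earlier results were known. Only genes that passed the level filter were used, and that filter counts sums of both experiments, most of them of TNF cells. The return of genes higher in transient cells is therefore in part by selection. In the 1-plate experiment, 86 genes (1.03%) were at least 4-fold higher in transient cells, and 76 of them (88.4%) were also higher in the 2-plate experiment, with a median log2 difference of 1.71 there and 30 again at least 4-fold higher. In the 2-plate experiment, 49 genes (0.586%) were at least 4-fold higher, and 45 of them (91.8%) were higher in the 1-plate experiment, with a median of 2.60 there and 30 again past 4-fold. For comparison, 39.7% of all genes tested were higher in transient cells of the 2-plate experiment, and 54.7% in those of the 1-plate experiment. In the other direction, of 37 genes (0.443%) at least 4-fold lower in the 1-plate experiment, 26 (70.3%) were lower in the 2-plate experiment, with a median of -0.68 and 6 again past 4-fold. Most of all genes tested were lower there too, with a median log2 difference of -0.0665, so the 70.3% is not far above the share over all genes. Of 9 genes (0.108%) at least 4-fold lower in the 2-plate experiment, 8 were lower in the 1-plate experiment, with a median of -2.34 and 6 again past 4-fold. Over all 8361 genes, which are not independent of each other, the differences of the experiments had a Pearson's r of 0.37 and a Spearman's rho of 0.16.

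**Figure D4:**
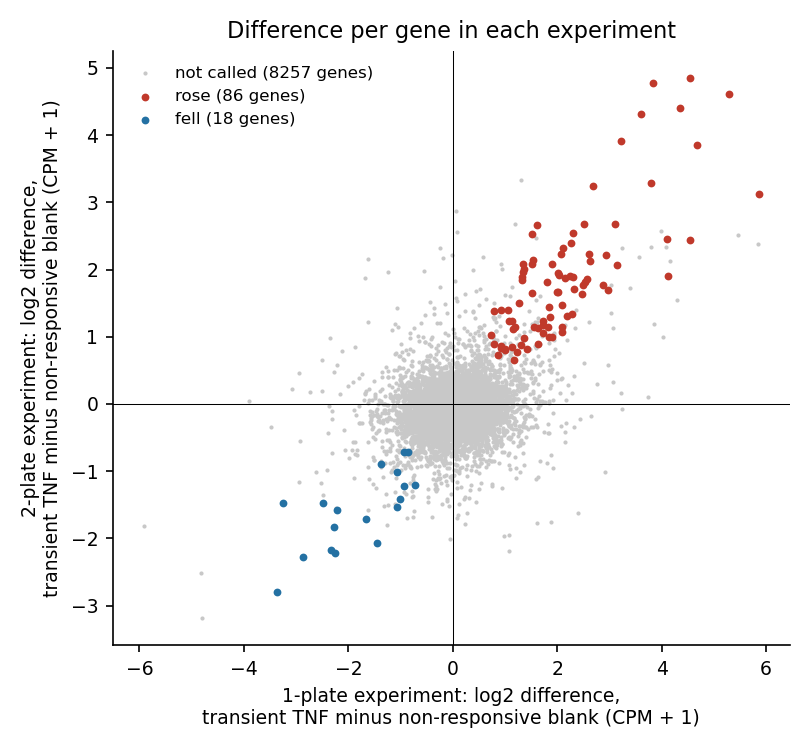
Difference in log2(CPM + 1), transient TNF minus non-responsive blank, per gene in the 1-plate experiment (horizontal axis) and the 2-plate experiment (vertical axis). The 86 genes that rose lie at the upper right and the 18 that fell at the lower left, in part by selection, since the test uses both experiments.

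Single cells were then placed by a score, the mean log2(CPM + 1) of genes that were at least 4-fold higher and read in at least 50% of transient cells in the other experiment. The score of 1-plate cells used 36 genes and that of 2-plate cells 68 genes, so its level is not compared between experiments. These genes had passed the level filter over the sums of both experiments, so their choice is not fully separate from the cells scored. In the 1-plate experiment the score ran from 2.26 to 5.69 in transient cells (median 3.72), and from 0.84 to 1.94 in blank cells (median 1.44). The classes did not overlap: all 25 transient cells stood above the highest of 13 blank cells. In the 2-plate experiment it ran from 1.62 to 5.83 in transient cells (median 4.38), and from 1.54 to 4.01 in blank cells (median 2.85). There 33 of 51 transient cells stood above the highest blank cell and 18 did not. With cells thinned to 500000 reads, 19 of 19 and 31 of 46 transient cells stood above the highest blank cell. The spread over cells was wider in transient than in blank cells, with an SD of 0.85 and 0.34 in the 1-plate experiment and 0.97 and 0.60 in the 2-plate experiment.

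The transient cells with the lowest scores came from one plate. Of the 51 transient cells of the 2-plate experiment, 6 had a score under the blank median. On Plate1, 23 of 23 transient cells stood above that median and on Plate2 22 of 28, while by phase it was 9 of 14 in G1, 11 of 12 in S and 25 of 25 in G2M. Of the 6 cells, 5 had fewer than 8000 detected genes. Among cells with 8000 or more detected genes, 43 of 44 transient cells were above the median of all blank cells, and the medians were 4.58 in 44 transient cells and 2.89 in 32 blank cells. Over transient cells of the 2-plate experiment the score and the log2 number of reads had a Pearson's r of 0.59 (51 cells, which share plates and library preparation), and in the 1-plate experiment -0.06 (25 cells). The part of RNA quality in the low scores was not tested. In G1 phase the median score was 3.88 in 14 transient cells and 3.44 in 9 blank cells of the 2-plate experiment, in S phase 4.16 in 12 and 2.44 in 5, and in G2M phase 4.64 in 25 and 2.92 in 20. In the 1-plate experiment the medians were 3.67 in 4 transient and 1.60 in 3 blank cells in G1, 3.31 in 7 and 1.58 in 3 in S, and 4.02 in 14 and 1.12 in 7 in G2M.

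**Figure D5:**
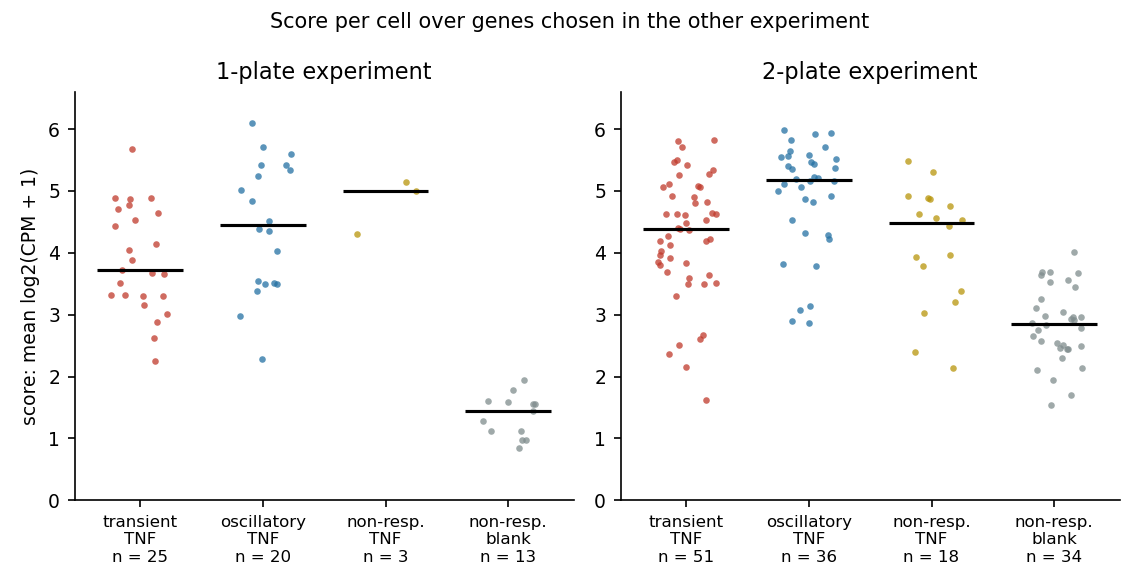
Score per cell (mean log2(CPM + 1) over genes chosen in the other experiment) by class, for the 1-plate experiment (36 genes) and the 2-plate experiment (68 genes). Points are cells and bars medians. All 25 transient cells of the 1-plate experiment lie above its blank cells, and 18 of 51 transient cells of the 2-plate experiment lie at or under its highest blank cell.

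Oscillatory TNF cells (20 from the 1-plate experiment, 36 from the other) were the class most like the transient cells in stimulus and number, and the pair was tested in the same fit. Of 8361 genes, 48 (0.574%) were higher and 211 (2.52%) lower in transient than in oscillatory cells, 3.1% in all, at a Benjamini-Hochberg adjusted p below 0.05, by edgeR's quasi-likelihood test. The log2 fold changes had a median of 1.22 for the higher genes and -1.27 for the lower genes. All 259 had the same direction in both experiments, in part by selection, since the test uses both. At least a 4-fold difference was fitted for 13 and 36 of them. The median level of the 211 genes was 59.9 CPM in transient and 157 CPM in oscillatory cells of the 1-plate experiment, and 57.1 CPM and 139 CPM in the 2-plate experiment. For the 48 genes it was 161 CPM in transient and 54.1 CPM in oscillatory cells, and 88.6 CPM and 38.4 CPM. Leaving out Plate2 of the 2-plate experiment left 6 genes higher and 27 lower, and leaving out its Plate1 left 3 and 46. They were 7 and 17 without the 1 blank cell described above, which is in neither class but is part of the shared fit. Within G2M cells the test made 0 calls (edgeR's quasi-likelihood test; 663 genes at an unadjusted p under 0.05). Of the 259 genes, 249 were tested there and 245 kept their direction, with median log2 fold changes of 0.78 and -0.91.

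The genes given by identifier differed in their place between transient and oscillatory cells. ENSMUSG00000113701 had a summed level of 76.4 CPM in transient and 66.8 CPM in oscillatory cells of the 1-plate experiment, and 33.2 CPM and 36.7 CPM in the 2-plate experiment, and the fitted log2 difference of 0.01 ± 0.62 (SE; edgeR, adjusted p = 1.0) leaves room for differences in either direction. ENSMUSG00000026875 was lower in transient cells, with 29 CPM against 79 CPM in oscillatory cells of the 1-plate experiment and 94.6 CPM against 210.3 CPM in the 2-plate experiment (log2 fold change -1.35 ± 0.16 SE; edgeR's quasi-likelihood test, adjusted p = 0.011). That call did not hold without Plate2 (edgeR, -1.10, adjusted p = 0.46) or on sums per plate (edgeR, adjusted p = 0.15). It did not hold in G2M cells (edgeR, adjusted p = 0.23) or with limma (adjusted p = 0.1) either. It was also lost with spike-in factors and without the experiment as a term. It stood at the limit with edgeR's default filter and without the 1 blank cell (edgeR, adjusted p = 0.05 in both). ENSMUSG00000039109 was lower in transient cells too, with 14.1 CPM against 121 CPM in oscillatory cells of the 1-plate experiment and 6.39 CPM against 38.9 CPM in the 2-plate experiment (log2 fold change -2.91 ± 0.26 SE; edgeR's quasi-likelihood test, adjusted p = 0.0056). Its call did not hold without the 1 blank cell (edgeR, -2.96, adjusted p = 0.08) or in G2M cells (edgeR, -2.08, adjusted p = 0.27). Nor did it hold with spike-in factors or without the experiment as a term. The summed level of this gene in blank cells was 71.3 CPM in the 1-plate and 33.3 CPM in the 2-plate experiment, below that of oscillatory cells in both. For ENSMUSG00000030530 the log2 fold change was -0.66 ± 0.40 (SE; edgeR, adjusted p = 0.49).

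By the score described above, the median of transient cells stood between those of blank and oscillatory cells. It was 3.72 in transient and 4.45 in oscillatory cells of the 1-plate experiment, and 4.38 and 5.18 in the 2-plate experiment, with ranges that overlapped in both. S phase was assigned to 28% of 25 transient and 10% of 20 oscillatory cells (exact binomial 95% intervals 12.1% to 49.4% and 1.24% to 31.7%), and to 23.5% of 51 and 5.56% of 36 (12.8% to 37.5% and 0.680% to 18.7%) in the 2-plate experiment. The intervals overlap, and the part of phase in the differences between transient and oscillatory cells was not tested.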

How the data were processed

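Per the labels' protocols, RNA of single cells was amplified by Smart-Seq2 and made into Nextera libraries. The authors deposited whole-read counts per Ensembl gene, made with featureCounts of Subread 1.5.0 and SAMtools among the tools listed in the submitters' processing notes. No build, annotation or strand setting is stated in the sources used here, so overlapping, antisense and near-identical genes may share reads. The authors' cell tables give stimulus, response class and phase, with a phase score deposited as a fraction. Reads carry no molecular identifiers, so intervals cover counting error only.

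Columns of the count tables were tied to samples by well and plate, and 357 further columns without a matching sample were left unused. The 92 spike-in features stayed out of library sizes and tests. Of 55450 gene identifiers, 0 matched the reference gene table, so gene lists, marker genes and promoter sequences, all set by symbol, were not analysed here, and pseudogenes, predicted and sex-linked genes could not be left out. No 2 cell columns were identical.

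Cells are not replicates, so counts were summed per experiment, stimulus and class with at least 5 cells (10 sums of 6371417 to 81353924 reads, 2 residual degrees of freedom and 5.64 prior degrees of freedom). Only classes present in both experiments, transient TNF, oscillatory TNF and non-responsive blank, add to the estimate of the spread. Genes with 10 CPM or above in no less than 50% of the sums were tested with edgeR 4.0.16 (R 4.3.3) by the quasi-likelihood test with TMM factors, the experiment as a term and Benjamini-Hochberg adjustment over all genes tested. Most sums were of TNF cells, so a gene at that level only in blank cells could not be tested. SE is the absolute log2 fold change over the square root of F. The labels show separate flow cells for the experiments, and over genes the deviations of the experiments from the class means correlated at 0.57 (transient and blank) and 0.76 (transient and oscillatory). The labels do not say that experiments used separate animals, so p-values measure only the spread between these 2 experiments, which may be technical. Named genes are the 2 with the largest change in each direction among called genes, with equal direction in both experiments and a read in at least 50% of cells of the higher class. The members, lists, tests and this rule were chosen with earlier results of these data known, and the 4-fold limit, the score and the left-out cells after seeing the data. The stricter filter was set as the main one beforehand, because the default filter had been described as giving more false calls on simulated counts. The fit was then tested on simulated data with known changes. Both filters gave false calls there, and the default filter gave more. The simulated counts were drawn per sum, so that test does not cover single cells that dominate a sum.

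Alternatives were other filters and factors, DESeq2 1.42.0, limma 3.58.1 on log2(CPM + 1) means, other sums, single plates, thinned cells, cells with 8000 or more genes, and 1 phase.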

Additional observations from a re-analysis of the deposited data

How the results depend on the processing

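All 104 genes called between transient and blank cells, as far as they were tested, kept their direction in each alternative run, but the counts moved widely. The runs reuse cells on which the calls were made. For transient against blank, genes that rose and fell numbered 19 and 3 with edgeR's default filter, 187 and 90 with DESeq2, and 204 and 136 with only the 4 sums of these classes. Without the replicate block, that is without the experiment term, 1 rose and 0 fell (edgeR; 305 genes at an unadjusted p under 0.05), and with spike-in factors 5 and 0 (84 genes), where the median of all genes moved to 0.37. Without Plate1 of the 2-plate experiment 7 rose and 0 fell. The genes that fell numbered 10 on sums per plate, 6 without Plate2, 9 with limma and 8 in G2M cells. The fit without the 1 blank cell, added once the data had been seen, gave 31 and 1. For transient against oscillatory cells, genes higher and lower numbered 6 and 27 with the default filter, 26 and 130 with no filter, 161 and 423 with DESeq2, 373 and 771 with 4 sums, 3 and 46 without Plate1, 6 and 27 without Plate2, and 7 and 17 without the 1 blank cell. They were 1 and 0 with spike-in factors (89 genes at an unadjusted p under 0.05), 0 and 0 without the replicate block (edgeR; 533 genes), and 0 and 0 in G2M cells. Other counts moved by at most 1.5 times, and the causes of these shifts were not tested. Of 104 calls, DESeq2 made all 104 and limma 49 and 5. The named genes had the same direction in both experiments by the rule that chose them. Their log2 differences in each experiment alone were 5.87 and 3.12 for ENSMUSG00000113701, 3.60 and 4.31 for ENSMUSG00000026875, -3.25 and -1.47 for ENSMUSG00000030530, and -2.26 and -2.21 for ENSMUSG00000039109. ENSMUSG00000026875 kept its call against blank in all but the fits with spike-in factors (edgeR adjusted p = 0.059) and without the replicate block (0.41). The other named genes lost theirs in these fits and in G2M cells. ENSMUSG00000113701 and ENSMUSG00000030530 also lost theirs with the default filter and in cells with 8000 or more genes. ENSMUSG00000030530 lost it too with no filter, on sums per plate, with thinned cells, with limma and without the highest transient cells. ENSMUSG00000039109 lost it with limma. With 2 experiments, counts for 1 experiment alone have no residual degrees of freedom, and G1 and S phase alone held too few blank cells to be run. The depth limits genes read in few cells, since a cell without a read may still hold transcripts.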

Other observations

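Other classes of cells had received TNF as well. In the 2-plate experiment, 18 TNF cells that were called non-responsive had a median score of 4.48 (2.14 to 5.48), beside 4.38 in 51 transient TNF cells and 2.85 in 34 non-responsive blank cells. The 3 non-responsive TNF cells of the 1-plate experiment had scores between 4.30 and 5.15. The summed level of the 86 genes that rose in transient cells had a median of 97.4 CPM in transient, 136 CPM in oscillatory and 119 CPM in non-responsive TNF cells of the 2-plate experiment, and 24.6 CPM in non-responsive blank cells. For the 18 genes that fell it was 36.5 CPM in transient, 81.1 CPM in oscillatory and 61.9 CPM in non-responsive TNF cells, and 109.5 CPM in non-responsive blank cells. Of these 18 genes, 11 lay below the blank level in oscillatory and 14 in non-responsive TNF cells. All 86 genes that rose lay above it in both classes. The genes were called for their difference from these same blank cells, so these counts are in part by selection. The same counts over all genes tested were not taken. The TNF classes are set against the same blank cells, and non-responsive TNF cells entered no test against another class here.

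The tables also hold blank cells called responsive. The 1 blank cell called transient in each experiment scored 1.55 (1-plate experiment) and 3.45 (2-plate experiment), both within the range of the non-responsive blank cells. The 5 blank cells called oscillatory, all in the 2-plate experiment, had scores between 2.03 and 4.36 with a median of 2.68, and 1 of them stood above the highest non-responsive blank cell.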
